A study of Solanum tuberosum with 12 samples.

Results

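The 101 genes described here, of 39027 in the count tables, were more abundant in cryopreserved potato shoot tips recovering under cool white fluorescent light than in tips recovering under red and blue light-emitting diodes (LEDs) or in darkness. They were chosen by their expression. With CPM (a gene's read count scaled to a library total of 1000000) averaged over the 3 libraries of a group, a member had at least 5 CPM under cool white light, at least 2 times its LED level and at least 2 times its dark level. Among the 15351 genes at 5 CPM or more under cool white light, 987 met the limit against darkness and 160 met the limit against LEDs, and the 101 met both. The excess over LEDs and over darkness is therefore how these genes were found, and it is given as a description.

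Shoot tips of the potato (Solanum tuberosum) genotype Agrie Dzeltenie were cut from in vitro plants. Plants were 3.5 weeks old, with a 16 h photoperiod, for every group. The tips were profiled by RNA sequencing in 4 groups of 3 biological replicates, with 10 tips pooled for each library. Tips of 3 groups were cryopreserved: they spent 2 h in 10% dimethyl sulfoxide (DMSO) with sucrose, were frozen in droplets, held in liquid nitrogen for 1 h, rewarmed and placed for 48 h in darkness on regeneration medium with zeatin riboside, gibberellic acid and indole acetic acid. For the next 16 h they received cool white light, LED light (90% red, 10% blue) or continued darkness, both lights at 40 µmol per square metre per second. The fourth group was not cryopreserved, was trimmed and kept under cool white light at 40 µmol per square metre per second. The labels do not state whether it passed through the dark period or the regeneration medium. Differences from that group therefore hold cryopreservation and any such difference in handling together. A shoot tip is a mixture of meristem, young leaf and stem cells, so a lower value can mean fewer cells of a type or less RNA per cell, which cannot be told apart here.

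Plants read light quality with several receptor families: phytochromes respond mainly to red and far-red light, cryptochromes and phototropins to blue and ultraviolet A light, and a separate receptor to ultraviolet B. Cool white fluorescent tubes are phosphor lamps whose emission spreads over the visible range, green and yellow included, whereas red and blue LEDs emit in narrow bands. Light that reaches dark-kept shoot tissue is known to start chloroplast development and the synthesis of protective pigments. The identifiers in the count tables (PGSC0003DMG numbers) are not paired with names in the files, and 0 of them matched the RefSeq gene table used here. The members are therefore given by identifier and grouped by how they were expressed, their functions are not described, and markers of the tissue could not be checked.

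Library totals ranged from 6342324 to 10572258 counts. LED replicates 1 and 3 stood apart: the chi-square of their counts, divided by its degrees of freedom, was 19.3, and that of the other replicate pairs 2.94 to 7.81. With LED replicate 2 the value was 7.81 for replicate 1 and 6.48 for replicate 3, so it does not single out replicate 3. LED replicates 1 and 3 also had the highest totals (10572258 and 9614471 counts). This measure rises with the totals where replicates differ by more than counting error, so the pairs are not compared at equal depth. The counts of members called under LEDs are also given without either library. The largest LED fold changes are given without LED replicate 3 and, for some genes, without LED replicate 1. Together the members took 0.367%, 0.390% and 0.363% of the counts in the cool white libraries, 0.168%, 0.167% and 0.120% under LEDs, 0.0651%, 0.0737% and 0.0869% in darkness, and 0.231%, 0.262% and 0.215% in non-cryopreserved tips.

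The median member had 14.1 CPM under cool white light, 5.40 CPM under LEDs, 2.84 CPM in darkness and 7.99 CPM in non-cryopreserved tips. Cool white means ran from 5.08 to 530 CPM, and 8 members exceeded 100 CPM. The median ratio of the cool white mean to the larger of the LED and dark means was 2.32, with quartiles of 2.19 and 2.68, so most members lay close to the limit of 2. That larger mean was the LED mean for 80 members and the dark mean for 21. For 84 of the 101 members every cool white library lay above all 6 LED and dark libraries. Among all genes at 5 CPM or more under cool white light, 9.12% were separated in this way. The rule used these same libraries, so the separation of the members is in part a product of the choice.

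**Figure D1:**
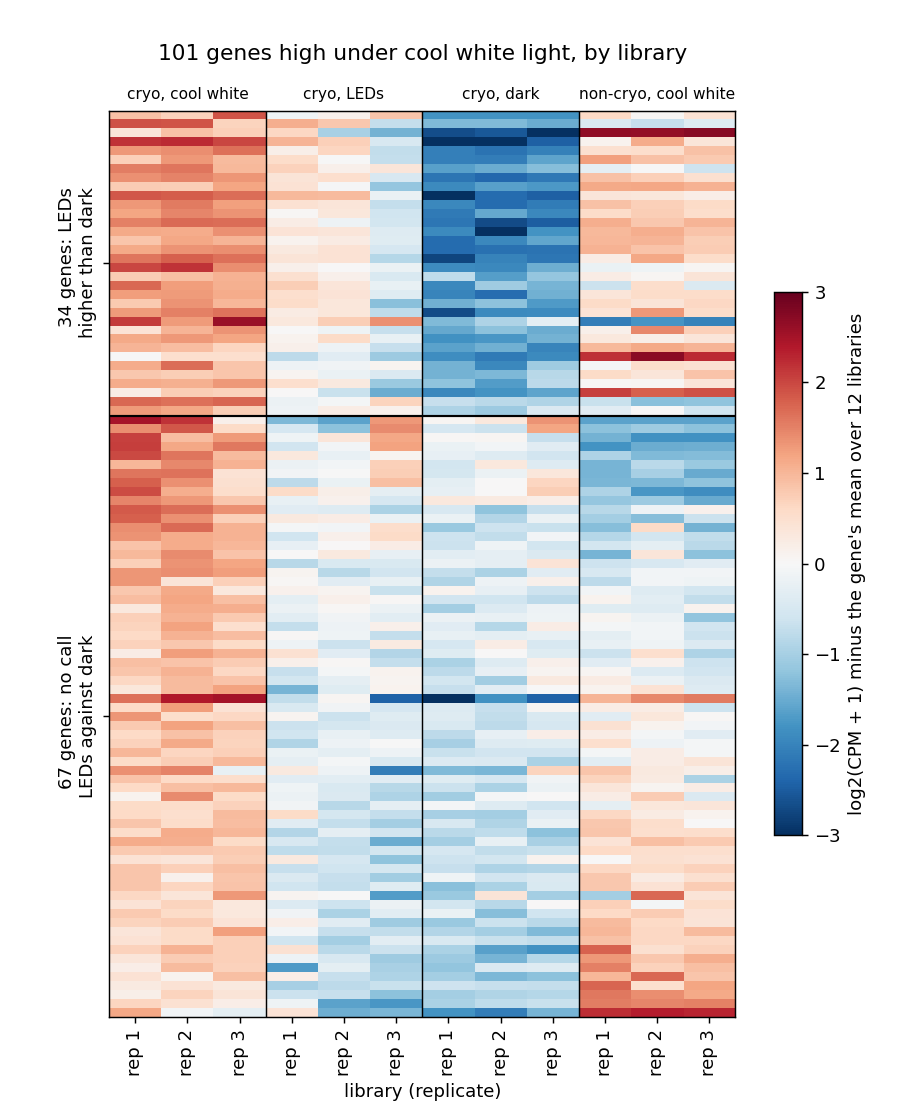
Expression of the 101 genes (rows) in the 12 libraries (columns), as log2(CPM + 1) minus the gene's mean over all libraries, with colours limited at 3 in either direction. The upper block holds 34 genes called higher under LEDs than in darkness, in which LED replicate 3 is paler or bluer than the other LED libraries for most rows, and the lower block the other 67.

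The most abundant member, PGSC0003DMG400012666, had 462, 543 and 584 CPM in the cool white libraries, 223, 240 and 111 CPM under LEDs, 28.8, 49.9 and 50.8 CPM in darkness, and 252, 465 and 276 CPM in non-cryopreserved tips. Its cool white libraries exceeded the LED libraries, the LED libraries exceeded the dark libraries, and non-cryopreserved replicate 2 lay just above the lowest cool white library. The next, PGSC0003DMG400024182, had 379, 369 and 332 CPM under cool white light, 203, 202 and 91.0 CPM under LEDs, 10.2, 20.1 and 18.1 CPM in darkness, and 135, 132 and 120 CPM in non-cryopreserved tips. Here all 3 cool white libraries lay above every other library.

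The largest excess over both other recovery conditions was 10.2-fold, in PGSC0003DMG400032534. It had 7.30, 6.38 and 5.01 CPM under cool white light, 0.851, 0.766 and 0.208 CPM under LEDs, 0.674, 0 and 0.439 CPM in darkness, and 0.315, 1.106 and 1.56 CPM in non-cryopreserved tips. Every library outside the cool white group held 1.56 CPM or less of this gene. In PGSC0003DMG400013010 the excess was 9.15-fold, with 28.1, 47.7 and 50.9 CPM under cool white light, 4.54, 8.58 and 0.728 CPM under LEDs, 0, 1.65 and 0.731 CPM in darkness, and 17.7, 24.3 and 26.3 CPM in non-cryopreserved tips. Its non-cryopreserved libraries lay between the cool white and the LED libraries without overlap.

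The limits cut through a continuous range. PGSC0003DMG400014773 (5.08 CPM) and PGSC0003DMG400010422 (5.09 CPM) were just inside the abundance limit, and PGSC0003DMG400025953 (4.90 CPM) and PGSC0003DMG400007740 (4.85 CPM) just outside it. PGSC0003DMG400027654 and PGSC0003DMG400020141 were just inside the ratio limit at 2.002 and 2.009, and PGSC0003DMG400026346 and PGSC0003DMG400024323 just outside at 1.999 and 1.998. A ratio from 2 to 2.2 was held by 27 members, and a ratio from 1.8 to 2 by 75 genes outside the set.

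Because the same libraries chose the members, the rule was also applied to 2 replicate numbers and read in the libraries of the replicate number left out, which played no part in that choice. Chosen without replicate 2, 105 genes met the rule, and 49 of them (46.7%) met it again in the replicate 2 libraries, against 0.900% of all genes at 5 CPM or more in the cool white libraries kept. Their median ratio in the left-out libraries was 2.09, against 0.938 over all those genes. Chosen without replicate 1, 41 of 156 genes (26.3%) met the rule in the replicate 1 libraries, against 1.05% of all genes, with a median ratio of 1.49. Chosen without replicate 3, 35 of 148 (23.6%) met it in the replicate 3 libraries, against 1.95%, with a median ratio of 1.34.

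In the left-out libraries the cool white value was the highest of the 3 recovery conditions for 98.1%, 88.5% and 64.9% of the genes chosen without replicate 2, 1 and 3. The same held for 36.7%, 39.9% and 41.5% of all genes. Each share rests on 1 library of each recovery condition, matched by a replicate number that was not taken to pair samples. The genes counted in a share are therefore not separate replicates. The direction thus recurred for most of the chosen genes, least often in replicate 3, and the median excess stayed above the limit of 2 in replicate 2 alone.

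Cool white light after cryopreservation was next compared with non-cryopreserved tips, which the rule did not use. Differential expression was tested with edgeR's quasi-likelihood test on all 19920 genes with enough counts, and a gene was called at a Benjamini-Hochberg adjusted p under 0.05. All 101 members had enough counts, which their cool white level alone provided. Relative to non-cryopreserved tips, 56 members (55.4%) were higher under cool white light and 8 (7.92%) were lower, while 37 did not pass. Of all genes tested, 27.8% were higher and 21.5% lower. The median log2 fold change was 0.77 over the members and 0.05 over all genes. The cool white libraries had been required to be high relative to LEDs and darkness, so an excess of higher members in this comparison is in part a product of the choice.

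The largest increases over non-cryopreserved tips were in genes that were nearly silent there. PGSC0003DMG400006944 had 15.8, 12.6 and 2.39 CPM under cool white light, 0.189, 0 and 6.55 CPM under LEDs, 2.16, 2.79 and 6.73 CPM in darkness, and no count in any non-cryopreserved library. Its cool white mean of 10.3 ± 7.01 CPM (SD, n = 3) was at least 75.9-fold higher, taking 3 counts over the non-cryopreserved group as the floor (edgeR adjusted p 0.00408). Without cool white replicate 1 the bound was 55.5-fold. The gene was also called higher under LEDs than in non-cryopreserved tips (edgeR adjusted p 0.0496). There the bound was 16.6-fold, but 0.699 without LED replicate 3, which is below the floor. Cool white replicate 3 lay below LED replicate 3 and below 2 dark libraries, so the recovery conditions overlapped in this gene.

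PGSC0003DMG400014773 had 5.17, 7.55 and 2.51 CPM under cool white light, 0.662, 0 and 5.30 CPM under LEDs, 0.674, 0.507 and 4.39 CPM in darkness, and 0, 0.123 and 0 CPM in non-cryopreserved tips. Its 118 counts under cool white light against 1 count in non-cryopreserved tips gave a ratio of 111, with a 95% interval from 19.5 to 4414 that covers counting error only, and an edgeR adjusted p of 0.00471. The fitted log2 fold change was 6.33, or 8.28 without non-cryopreserved replicate 2, which held that count. With all remaining non-cryopreserved counts at 0, the second value depends on the small prior count that edgeR adds. In both of these genes LED replicate 3 and dark replicate 3 were the highest libraries of their groups, and cool white replicate 3 was the lowest of its group.

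The 8 members that were lower under cool white light than in non-cryopreserved tips were lower still under LEDs and in darkness, as the rule requires. PGSC0003DMG401028252 had 6.50, 9.77 and 9.78 CPM under cool white light, 3.41, 5.06 and 2.60 CPM under LEDs, 1.08, 0.760 and 1.02 CPM in darkness, and 33.6, 48.9 and 34.9 CPM in non-cryopreserved tips. The 4 groups did not overlap. Its log2 fold change under cool white light against non-cryopreserved tips was -2.22 (SE 0.21, edgeR adjusted p 2.30e-06). PGSC0003DMG400033688 had 9.29, 13.7 and 12.2 CPM under cool white light, 11.4, 3.07 and 1.98 CPM under LEDs, 0.269, 0.380 and 0 CPM in darkness, and 50.0, 48.9 and 51.9 CPM in non-cryopreserved tips. Its log2 fold change under cool white light against non-cryopreserved tips was -2.15 (SE 0.36, edgeR adjusted p 0.000252). LED replicate 1 of this gene lay within the range of the cool white libraries.

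**Figure D2:**
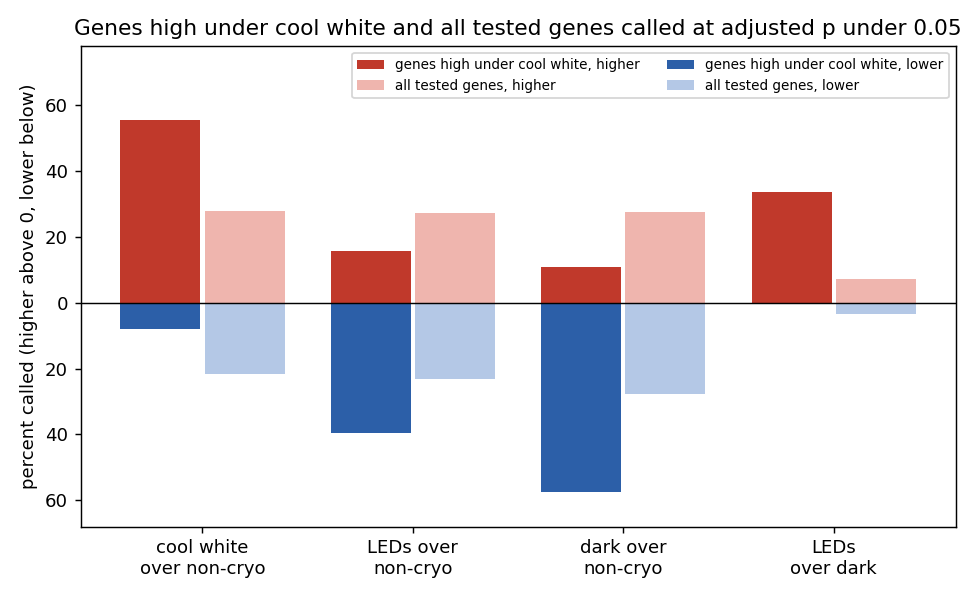
Percent of the 101 genes (dark bars) and of all 19920 genes tested (pale bars) called higher (above 0) or lower (below 0) in 4 comparisons, at an edgeR adjusted p under 0.05. Against non-cryopreserved tips, 55.4% of the genes were higher and 7.92% lower under cool white light, beside 27.8% and 21.5% of all genes. Under LEDs 15.8% were higher and 39.6% lower, beside 27.3% and 23.3%. In darkness 10.9% were higher and 57.4% lower, beside 27.7% and 27.6%. The rule required a high cool white level relative to LEDs and darkness, so these differences from all genes are in part a product of the choice.

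Set against non-cryopreserved tips, LED recovery had 16 members (15.8%) higher and 40 (39.6%) lower, while 45 did not pass. Without LED replicate 3 the counts were 13 higher and 36 lower, and without LED replicate 1 they were 15 and 46. Over all genes 27.3% were higher and 23.3% lower. The median log2 fold change was -0.56 over the members and 0.03 over all genes. The rule placed a ceiling on the LED level of the members, so their excess of lower calls is in part a product of the choice. Dark recovery, where the same ceiling applied, had 11 members (10.9%) higher and 58 (57.4%) lower than that group, while 32 did not pass. Over all genes 27.7% were higher and 27.6% lower in darkness, and the medians were -1.25 over the members and -0.01 over all genes. All 3 comparisons share the non-cryopreserved libraries.

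Among members higher under LEDs than in non-cryopreserved tips, the largest differences with separate libraries were in PGSC0003DMG400045654 and PGSC0003DMG400024707. PGSC0003DMG400045654 had 13.4, 5.60 and 7.52 CPM under cool white light, 2.18, 3.53 and 6.76 CPM under LEDs, 2.56, 2.66 and 1.17 CPM in darkness, and 0.315, 0 and 0 CPM in non-cryopreserved tips. Its 111 counts under LEDs against 2 in non-cryopreserved tips gave a ratio of 46.1, with a 95% counting interval from 12.5 to 385 and an edgeR adjusted p of 0.000233. The fitted log2 fold change was 5.26, or 8.05 without non-cryopreserved replicate 1, which held both of its non-cryopreserved counts, where it depends on that prior count in the same way, and 4.66 without LED replicate 3. PGSC0003DMG400024707 had 22.8, 12.4 and 32.6 CPM under cool white light, 5.86, 8.28 and 13.4 CPM under LEDs, 1.21, 1.90 and 3.51 CPM in darkness, and 0.315, 0.614 and 0.390 CPM in non-cryopreserved tips. All LED libraries of this gene exceeded all dark libraries, which exceeded all non-cryopreserved libraries. Its log2 fold change was 4.27 under LEDs against non-cryopreserved tips (SE 0.60, edgeR adjusted p 5.92e-05), or 3.86 without LED replicate 3, and 2.26 in darkness (SE 0.75, edgeR adjusted p 0.0204).

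PGSC0003DMG401028252 and PGSC0003DMG400033688 also showed the largest decreases under LEDs against non-cryopreserved tips. Their log2 fold changes were -3.49 (SE 0.23, edgeR adjusted p 2.52e-07) and -3.18 (SE 0.39, edgeR adjusted p 1.98e-05). Without LED replicate 3 they were -3.30 and -2.75, and that of PGSC0003DMG400033688 was -4.39 without LED replicate 1. In darkness the largest increases with separate libraries were again in the nearly silent genes. PGSC0003DMG400006944 was at least 28.7-fold higher in darkness by the same floor, with an edgeR adjusted p of 0.0201, while without dark replicate 3 the bound was at least 18.3-fold and the adjusted p 0.0595, and the adjusted p was 0.0512 without non-cryopreserved replicate 2. PGSC0003DMG400014773 had an edgeR adjusted p of 0.0370 in darkness against non-cryopreserved tips, and this call was lost without dark replicate 3 (adjusted p 0.223) and without non-cryopreserved replicate 1, 2 or 3 (adjusted p 0.0893, 0.0821 and 0.102).

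The largest decreases in darkness with separate libraries were in PGSC0003DMG400029620 and PGSC0003DMG400033688. PGSC0003DMG400029620 had 5.31, 4.56 and 11.7 CPM under cool white light, 2.18, 2.76 and 5.10 CPM under LEDs, no count in any dark library, and 4.26, 2.58 and 3.64 CPM in non-cryopreserved tips. Its LED and non-cryopreserved libraries overlapped, and only the dark libraries stood apart from both. The edgeR adjusted p in darkness against non-cryopreserved tips was 0.000137. PGSC0003DMG400033688 had a log2 fold change of -7.69 in darkness against non-cryopreserved tips (SE 0.66, edgeR adjusted p 7.75e-07), or -8.32 without dark replicate 2.

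LEDs were then compared with darkness, a contrast the rule did not set beyond the shared ceiling. For 34 members (33.7%) expression was higher under LEDs than in darkness, while 67 did not pass the test and 0 were called lower. Of all genes tested, 7.17% were higher and 3.46% lower under LEDs. Among genes at 5 CPM or more under cool white light, 160 met the limit against LEDs and 987 that against darkness. The rule thus bore unequally on the 2 levels, and the excess of higher calls can be in part a product of the choice. The median log2 fold change of LEDs over darkness was 0.49 over the members and 0.01 over all genes. At an unadjusted p under 0.05 edgeR gave 2 members lower under LEDs, and DESeq2 called 0.

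The 34 members called higher had median levels of 15.2 CPM under cool white light, 6.63 CPM under LEDs, 1.28 CPM in darkness and 8.32 CPM in non-cryopreserved tips. The other 67 had 12.3, 4.65 and 3.84 CPM in the same 3 recovery conditions and 6.87 CPM in non-cryopreserved tips. The median ratio of cool white light to LEDs was 2.29 in the 34 and 2.37 in the 67. The median ratio of cool white light to darkness was 12.4 in the 34 and 2.79 in the 67. With the ratios to LEDs alike, that difference follows largely from sorting the members by LEDs over darkness. This split is that of the test: the quartiles of the log2 fold change of LEDs over darkness were 0.00 and 2.01 over the 101 members, and 41 members had an LED mean of at least 2 times the dark mean. PGSC0003DMG400013010, already described, was among the 67 with a log2 fold change of 2.33 (SE 0.82, edgeR adjusted p 0.0874).

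The largest increases under LEDs against darkness were in PGSC0003DMG400029620, at least 24.7-fold higher with a floor of 3 counts over the dark group (edgeR adjusted p 0.00139), with a bound of 18.2-fold without LED replicate 3, and in PGSC0003DMG400011603. PGSC0003DMG400011603 had 9.55, 9.37 and 3.46 CPM under cool white light, 5.01, 3.99 and 0.728 CPM under LEDs, 0.135, 0.127 and 0 CPM in darkness, and 1.104, 0.737 and 1.17 CPM in non-cryopreserved tips. Its LED and dark libraries did not overlap, and LED replicate 3 lay well below the other LED libraries. Its 86 counts under LEDs against 2 in darkness gave a ratio of 35.7, with a 95% counting interval from 9.58 to 299 and an edgeR adjusted p of 0.00582. The fitted log2 fold change was 4.87, or 5.36 without LED replicate 3 and 4.31 without LED replicate 1.

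LED replicate 3 was low in most members called higher under LEDs than in darkness, and in some of the others. It was the lowest LED library for 28 of the 34 members called higher, with a median level of 53.8% of the mean of the other LED libraries. In the 67 that did not pass it was the lowest for 28, at a median of 91.0%. Those 67 were mixed. The median was 105% in the 38 of them that were higher under cool white light than in non-cryopreserved tips. It was 63.8% in the 24 with no call in that comparison and 50.2% in the 5 that were lower. LED replicate 3 was the lowest LED library for 12, 13 and 3 members of these classes. The same library was the lowest LED library for 75.8% of the 1395 other genes called higher under LEDs than in darkness, at a median of 77.5%, and for 39.2% of all genes tested, at a median of 97.4%. Without LED replicate 3, 39 members were called higher under LEDs than in darkness in place of 34, and without LED replicate 1, 30 were. The number of genes that met the membership rule was 89 without LED replicate 3, of which 72 were among the 101, and 142 without LED replicate 1, of which 91 were.

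**Figure D3:**
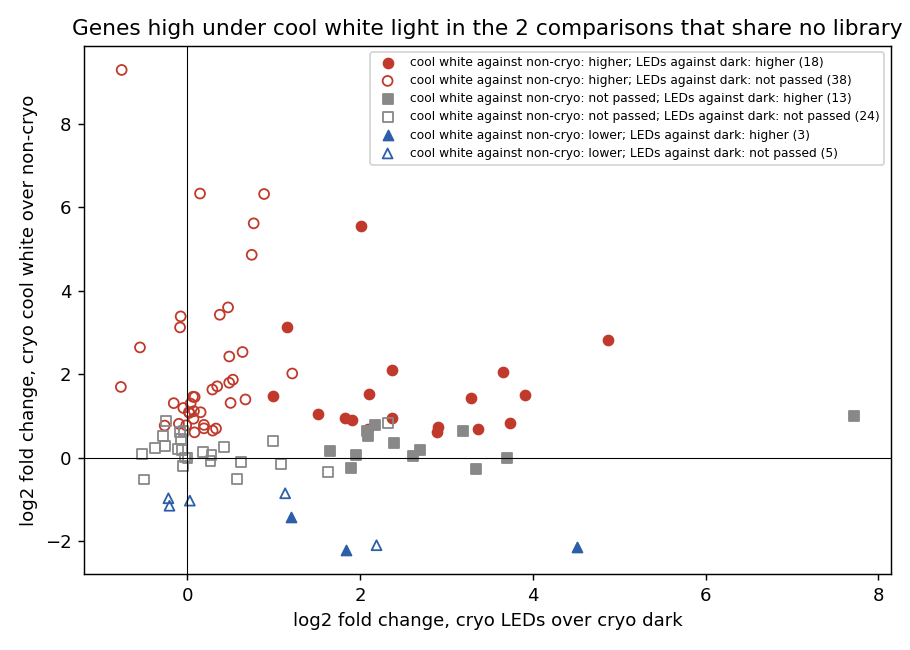
Log2 fold change of cryopreserved tips under cool white light over non-cryopreserved tips (vertical) against that of LEDs over darkness (horizontal), 1 point for each of the 101 genes. Colour and shape show the call against non-cryopreserved tips and filled points the 34 genes called higher under LEDs than in darkness, which include 18 that were higher, 13 that did not pass and 3 that were lower than in non-cryopreserved tips.

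The comparison of LEDs with darkness and that of cool white light with non-cryopreserved tips share no library, and the members were sorted by both. The rule set the cool white level against the LED and dark levels, so these comparisons are not independent for the members. Of the 34 members called higher under LEDs than in darkness, 18 (52.9%) were higher under cool white light than in non-cryopreserved tips, 13 did not pass and 3 were lower. Of the 67 that did not pass that test, 38 (56.7%) were higher, 24 did not pass and 5 were lower. Over all genes tested, 27.8% were higher and 21.5% lower under cool white light than in non-cryopreserved tips. The same sorting by both comparisons was not made over all genes. The difference between these shares was not tested.

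The most abundant gene of each of these 6 classes, chosen after the values were seen, shows the range of profiles. In the class of 18 this was PGSC0003DMG400024182, already described, with a log2 fold change of 1.43 under cool white light against non-cryopreserved tips (SE 0.24, edgeR adjusted p 0.000273) and 3.29 under LEDs against darkness (SE 0.28, edgeR adjusted p 5.57e-06). In the class of 13 it was PGSC0003DMG400012666, whose log2 fold change of 0.63 under cool white light against non-cryopreserved tips did not pass (SE 0.27, edgeR adjusted p 0.0695), whereas LEDs exceeded darkness by 2.08 (SE 0.29, edgeR adjusted p 0.000465).

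In the largest class, the 38 members with no call between LEDs and darkness that were higher under cool white light than in non-cryopreserved tips, the most abundant was PGSC0003DMG400023703. It had 269, 313 and 233 CPM under cool white light, 92.1, 144 and 161 CPM under LEDs, 87.4, 127 and 159 CPM in darkness, and 157, 114 and 100 CPM in non-cryopreserved tips. The cool white libraries stood above all 9 others, which overlapped freely. Its log2 fold change under cool white light against non-cryopreserved tips was 1.07 (SE 0.24, edgeR adjusted p 0.00200). Over this class the median levels were 15.5 CPM under cool white light, 5.61 CPM under LEDs, 5.04 CPM in darkness and 4.77 CPM in non-cryopreserved tips. LED replicate 3 was the highest LED library for 18 of the 38 and the lowest for 12.

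In the class of 24, with no call in either comparison, the most abundant was PGSC0003DMG400004808. It had 58.8, 54.0 and 61.7 CPM under cool white light, 19.9, 21.3 and 22.3 CPM under LEDs, 19.7, 16.6 and 17.3 CPM in darkness, and 51.1, 48.8 and 53.0 CPM in non-cryopreserved tips. The cool white and non-cryopreserved libraries formed a high pair of groups and the LED and dark libraries a low pair. Against non-cryopreserved tips its log2 fold change was 0.14 under cool white light (SE 0.10, edgeR adjusted p 0.269), -1.31 under LEDs (SE 0.10, edgeR adjusted p 7.36e-07) and -1.49 in darkness (SE 0.11, edgeR adjusted p 2.11e-07). The median levels of the class were 9.20 CPM under cool white light, 3.28 CPM under LEDs, 2.89 CPM in darkness and 8.57 CPM in non-cryopreserved tips.

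The 2 classes that were lower under cool white light than in non-cryopreserved tips held 3 members called higher under LEDs than in darkness and 5 that did not pass that test. The most abundant of the 3 was PGSC0003DMG400002890, with 37.8, 55.2 and 53.0 CPM under cool white light, 33.0, 20.1 and 10.9 CPM under LEDs, 7.81, 8.74 and 10.2 CPM in darkness, and 139, 115 and 125 CPM in non-cryopreserved tips. No cool white library reached the non-cryopreserved range. The most abundant of the 5 was PGSC0003DMG400014824, with 59.3, 83.5 and 68.8 CPM under cool white light, 33.0, 32.0 and 21.6 CPM under LEDs, 25.5, 27.4 and 28.2 CPM in darkness, and 159, 140 and 117 CPM in non-cryopreserved tips. Its LED and dark libraries overlapped, and both groups lay below the cool white libraries, which lay below the non-cryopreserved ones.

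**Figure D4:**
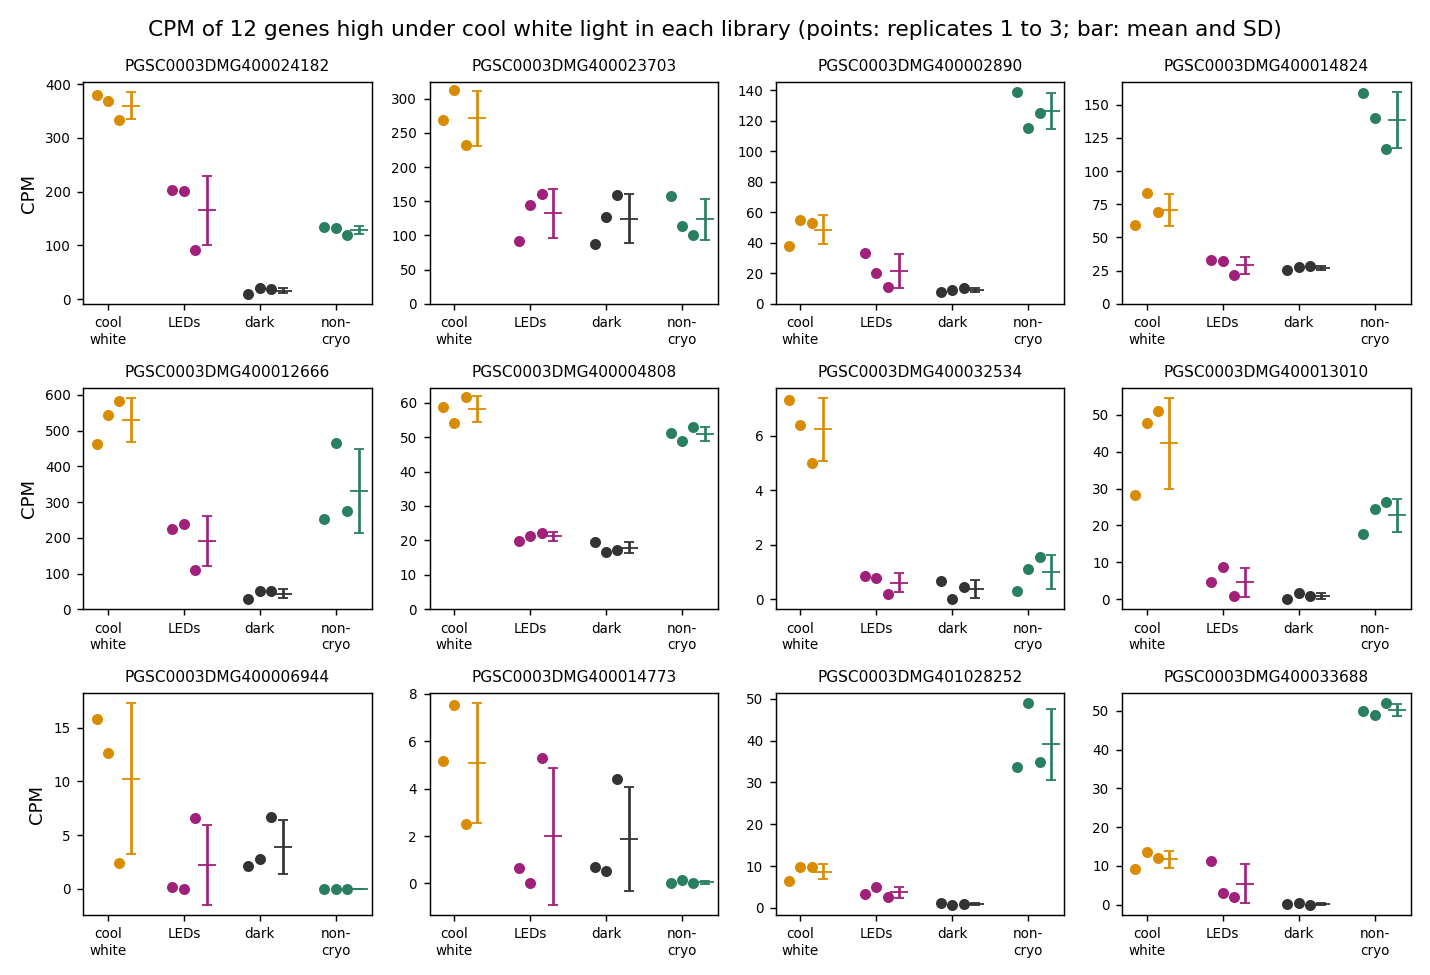
CPM of 12 of the genes in each library (points, replicates 1 to 3 from left to right) with the group mean and SD (bars), on a linear axis of its own for each gene. PGSC0003DMG400004808 has 2 high and 2 low groups, PGSC0003DMG400023703 is high in the cool white libraries alone, and PGSC0003DMG400024182 steps down from cool white light to LEDs to darkness.

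In the same edgeR test, 53 members passed as higher under cool white light than under LEDs and 90 as higher than in darkness, beside 1.06% and 10.4% of all genes tested. Of the members 0 were called lower in either, beside 0.377% and 4.55% of all genes. The 53 became 28, 14 and 25 without cool white replicate 1, 2 or 3, 27 without LED replicate 2, 51 without LED replicate 3 and 23 when the other groups were left out of the fit. These counts come from the contrasts that chose the members and nothing is read from them. The libraries did not overlap between cool white light and LEDs for 85 members, beside 13.3% of all genes with cool white libraries higher. Between cool white light and darkness they did not overlap for 95, beside 25.2%. This separation too is in part a product of the choice.

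Outside the set, the genes whose profile was most like the members' mean standardised profile, by Pearson's r over the 12 libraries and among 15250 genes at 5 CPM or more under cool white light, were PGSC0003DMG400026524 (r = 0.985) and PGSC0003DMG400018239 (r = 0.969). PGSC0003DMG400026524 averaged 101 CPM under cool white light, 67.8 CPM under LEDs, 58.6 CPM in darkness and 77.9 CPM in non-cryopreserved tips. Its ratio of 1.50 to the larger of the LED and dark means kept it out of the set.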

How the data were processed

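Each deposited file gives one sample's raw counts of reads per gene, which the authors had not normalized. The submitters' processing notes name featureCounts 1.5.0, TopHat2 2.0.8b, DESeq2 1.14.1, Bowtie 1.1.1 and FastQC 1.11.2. Not given in the sources used here are the genome build, annotation, strand setting and handling of reads with several positions. Values of genes that overlap, lie antisense or have near-identical copies are therefore uncertain. Per the labels' protocols, RNA with an integrity number above 7.4 went into a stranded mRNA library kit.

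Groups and replicate numbers came from the labels. CPM was computed from column totals. Counts were tested in R 4.3.3 with edgeR 4.0.16: filterByExpr (minimum count 10, minimum total 15) kept 19920 genes, TMM factors were between 0.958 and 1.03, and 1 quasi-likelihood model (glmQLFit, glmQLFTest) with a term for group covered the 12 libraries (8 residual degrees of freedom), two-sided, with Benjamini-Hochberg adjustment over all genes. Standard errors were derived from each log2 fold change and its F statistic. Alternatives were other scalings, DESeq2 1.42.0, no filter, fits of 2 groups, a replicate block, each library left out and other limits of the rule.

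The members, classes and rules were chosen with earlier results of these data known. Genes were named by abundance, by the ratio of cool white light to the larger of the other 2 means, by the 2 largest fold changes per comparison and direction among called members whose libraries did not overlap, by closeness to the limits and by likeness of profile. No sequences were used.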

Additional observations from a re-analysis of the deposited data

How the results depend on the processing

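Scaling by DESeq2 size factors or library size, DESeq2, and no filter left every count of called members within 1.5 times its value in the 6 comparisons. When only the groups compared were fitted, 7 members were called higher in dark recovery against non-cryopreserved tips (not 11) and 23 higher under cool white light than under LEDs (not 53). With replicate number as a block, 2 members became lower under LEDs than in darkness (not 0), and no other count moved by over 1.5 times. The numbers were not taken to pair samples: deviations of same-numbered libraries from their group means correlated at over 0.1 in 4 of 18 pairs, and in 4 they exceeded both other numbers. The rule gave 64 members at a limit of 10 CPM, 13 at a ratio of 3 and 91 with TMM-scaled CPM, all 91 being among the 101.

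Leaving out 1 library at a time, the counts ranged from 46 to 62 higher and 7 to 9 lower for cool white light against non-cryopreserved tips, 12 to 17 higher and 35 to 46 lower for LEDs, and 8 to 12 higher and 55 to 59 lower for darkness. For LEDs against darkness they ranged from 27 to 39 higher and 0 to 1 lower, the 1 without LED replicate 1 or 3. For cool white light they ranged from 14 to 56 higher against LEDs, with 28, 14 and 25 when cool white replicate 1, 2 or 3 was left out and 27 for LED replicate 2, and from 71 to 94 against darkness, with 0 lower in both. The number of members ranged from 89 to 142. Of the 250 values that the alternatives gave for named genes, 244 had the same direction and call and 6 lost the call, all in darkness against non-cryopreserved tips. PGSC0003DMG400014773 in darkness against non-cryopreserved tips and PGSC0003DMG400011603 under LEDs against darkness gave no value when only the groups compared were fitted, because neither then had enough counts to be tested. The cause was not tested.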

Other observations

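Among the 101 genes, 1 pair had consecutive identifiers, PGSC0003DMG400030828 and PGSC0003DMG400030829. The first had 24.5, 34.1 and 31.0 CPM under cool white light, 16.5, 14.6 and 9.26 CPM under LEDs, 13.5, 12.8 and 13.5 CPM in darkness, and 12.9, 15.1 and 9.76 CPM in non-cryopreserved tips. The second had 26.7, 25.7 and 24.0 CPM under cool white light, 15.5, 14.1 and 8.01 CPM under LEDs, 6.60, 10.3 and 15.5 CPM in darkness, and 10.7, 15.1 and 8.59 CPM in non-cryopreserved tips. LED and non-cryopreserved libraries kept the same order in both genes. The pair was noticed after the values were seen, and whether the genes are neighbours or share reads was not tested.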
